A study of Saccharomyces cerevisiae with 6 samples.

Results

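The genes of NAD salvage and of nicotinic acid uptake were examined in budding yeast (Saccharomyces cerevisiae) whose histone H3 carried arginine in place of the lysines at positions 4, 36 and 79, against yeast with wild-type H3. The set comprised 9 of the 5656 genes that had a probe set annotated to exactly 1 gene, namely TNA1, PNC1, NPT1, NMA1, NMA2, QNS1, NRK1, URH1 and PNP1. It was measured by 11 of 9275 probe sets, 3 for NMA2 and 1 for each other gene, and all 11 passed the filter on dim signals. The genes were chosen by their place in the pathway with the mutant against wild-type differences of these same arrays already in view, TNA1's low signal in the mutant among them, so its differences in that contrast are given as a description, with no p-value, and counts of calls within the set support nothing.

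Total RNA was hybridised to Affymetrix arrays from 3 cultures of the H3 mutant strain and 3 of the wild-type strain. Both groups had grown in selective galactose medium and had been in selective glucose medium for 6 h at harvest. Per the series design, the move to glucose shuts off wild-type H3 and leaves the mutant protein as the only H3, which these arrays do not measure. The labels give no strain background, mating type or plasmid, so any other difference between the strains cannot be told apart from the substitutions. They also do not give the nicotinic acid content of the medium.

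NAD is a redox cofactor and is also consumed by the Sir2 family of deacetylases, which release nicotinamide. Yeast rebuilds it from nicotinic acid, taken up by the transporter Tna1 or made from nicotinamide, through the Preiss-Handler route. Yeast also rebuilds it from nicotinamide riboside, by enzymes of its own together with enzymes shared with that route. It can also make NAD from tryptophan with the Bna enzymes, and that route joins salvage at nicotinic acid mononucleotide. The deacetylase Hst1, working with the repressor Sum1, is known to repress several BNA genes and TNA1 in yeast.

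Signals are MAS5 probe set intensities scaled to an equal trimmed mean of 500 on every array, and can be compared between arrays for 1 probe set but not between probe sets. Differences are mutant minus wild type on log2(signal + 16), with the standard error (SE) from limma, and a probe set was called at an adjusted p under 0.05 over all 6808 probe sets tested. Over all of these, 1.35% were called lower (92) and 0.896% higher (61) in the mutant, and the median difference was 0.02. An unadjusted limma p under 0.05, in either direction, was reached by 1334 of the 6808, beside which the unadjusted counts below are to be read. The mutant arrays all lay above the wild-type arrays for 972 of the 6808 and all below them for 783. Genes given below as without overlap are to be read beside these counts. The deposited values of the mutant arrays hold an added multiplier of 0.767 to 0.888, and with these values left unscaled the median difference was -0.22, 372 were lower and 31 higher. Correlations between arrays were 0.964 to 0.983 within the mutant, 0.985 to 0.989 within the wild type and 0.961 to 0.981 between groups.

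In the mutant, RNA of the nicotinic acid transporter TNA1 was at 40.8% of its wild-type mean and that of NPT1, the first enzyme of the Preiss-Handler route, at 65.3%. These 2 of the 9 genes were called lower and 0 were called higher. Means were lower in the mutant for 8 genes and higher for PNP1 alone, whose sign turned with the intensities as deposited. With each gene at its brightest probe set, the median difference was -0.34. The mutant arrays all lay below the wild-type arrays, with no overlap, for 5 genes, as they did for 11.5% of all probe sets tested. These were TNA1, NPT1, NMA2, QNS1 and NRK1, and the groups overlapped for PNC1, NMA1, URH1 and PNP1.

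**Figure D1:**
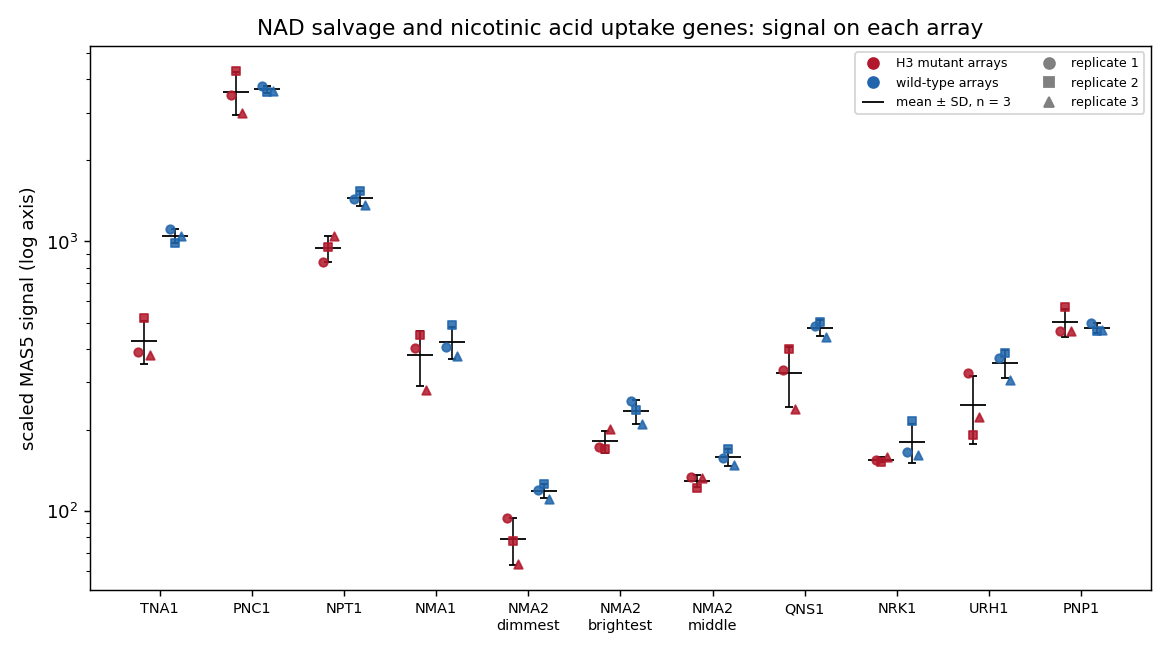
Scaled MAS5 signal (log axis) of each of the 11 probe sets on every array, H3 mutant left of wild type, with a symbol per replicate and the mean ± SD (n = 3). Heights can be compared within a probe set only. TNA1 shows the widest gap, with mutant arrays at 379 to 518 and wild-type arrays at 990.1 to 1110.2, whereas the groups interleave for PNC1 and PNP1.

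TNA1 (YGR260W) encodes the high-affinity nicotinic acid permease of the plasma membrane. Its scaled signal was 388, 518 and 379 on mutant arrays 1, 2 and 3, and 1110.2, 990.1 and 1048 on the wild-type arrays. Even the highest mutant array, replicate 2, was at 49.4% of the wild-type mean, and the others were at 36.9% and 36.1%. The means were 428 ± 78.0 in the mutant and 1049.5 ± 60.1 in the wild type (SD, n = 3 each). TNA1 fell by 1.27 on the log2 scale (SE 0.15), the 33rd lowest difference of the 6808 probe sets tested. It was called lower under all 9 other settings and without any 1 of the 6 arrays, with differences of -1.52 to -1.19.

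PNC1 (YGL037C) encodes nicotinamidase, which turns nicotinamide into nicotinic acid and is known to be induced by stress in yeast. Its signal was 3495, 4305 and 2992 on the mutant arrays, against 3788, 3585 and 3632 on the wild-type arrays. The mutant arrays lay on both sides of the wild-type arrays and were spread more widely, at 3597 ± 662 in the mutant and 3668 ± 106.4 in the wild type (SD, n = 3 each). The difference was -0.04 (SE 0.14), with a 95% interval of -0.36 to 0.27.

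Of the Preiss-Handler genes, NPT1 (YOR209C) encodes nicotinate phosphoribosyltransferase, which makes nicotinic acid mononucleotide. Its signal was 836, 954 and 1046 on the mutant arrays, against 1439.9, 1539 and 1363 on the wild-type arrays, so that the highest mutant array lay well under the lowest wild-type array. The means were 945 ± 105.6 in the mutant and 1447 ± 87.9 in the wild type (SD, n = 3 each), and NPT1 fell by 0.61 (SE 0.13). The NPT1 call depended on the settings. It was lost, at the same difference, with no signal filter, with a filter at 200 and without an intensity trend in the variance. It was also lost without mutant replicate 1 (difference -0.53) or 3 (-0.69) or, among the wild-type arrays, replicate 1 (-0.61), 2 (-0.57) or 3 (-0.65), and then TNA1 was the only gene of the set called.

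QNS1 (YHR074W) encodes the glutamine-dependent NAD synthetase, the last step shared by the Preiss-Handler and tryptophan routes. Its signal was 334, 399.8 and 239 on the mutant arrays and 488, 503 and 443 on the wild-type arrays. The groups did not overlap, and the means were 324 ± 80.8 in the mutant and 478 ± 31.1 in the wild type (SD, n = 3 each), or 67.8% of the wild type. The difference of -0.57 (SE 0.18) was not called, and it was called, at -0.72, without mutant replicate 2, the highest mutant array.

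NMA1 (YLR328W) and NMA2 (YGR010W) encode paralogous enzymes that adenylate both nicotinic acid mononucleotide and nicotinamide mononucleotide. NMA1 gave 404, 449.6 and 282 on the mutant arrays and 407, 490.0 and 376 on the wild-type arrays. The groups overlapped, with a difference of -0.18 (SE 0.19) and a 95% interval of -0.60 to 0.25, and only mutant replicate 3 lay below all wild-type arrays. Without that array the sign of the NMA1 difference turned (0.01).

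The brightest NMA2 probe set gave 172, 170.2 and 201 on the mutant arrays and 257, 237 and 209.6 on the wild-type arrays. Its difference was -0.34 (SE 0.14, 95% interval -0.67 to -0.02). The dimmest gave 94.5, 77.6 and 63.4 on the mutant arrays and 119.6, 125.9 and 111.1 on the wild-type arrays. Its difference was -0.52 (SE 0.17, 95% interval -0.90 to -0.15). The one between them in brightness gave 133, 122 and 132 on the mutant arrays and 157, 170.3 and 147 on the wild-type arrays. Its difference was -0.26 (SE 0.14, 95% interval -0.57 to 0.05). All 3 NMA2 probe sets therefore had non-overlapping groups with the mutant lower, and none of the 3 was called. The brightest was called, at -0.57, with the intensities as deposited. Whether probes of NMA1 and NMA2 also read the paralogue was not tested.

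**Figure D2:**
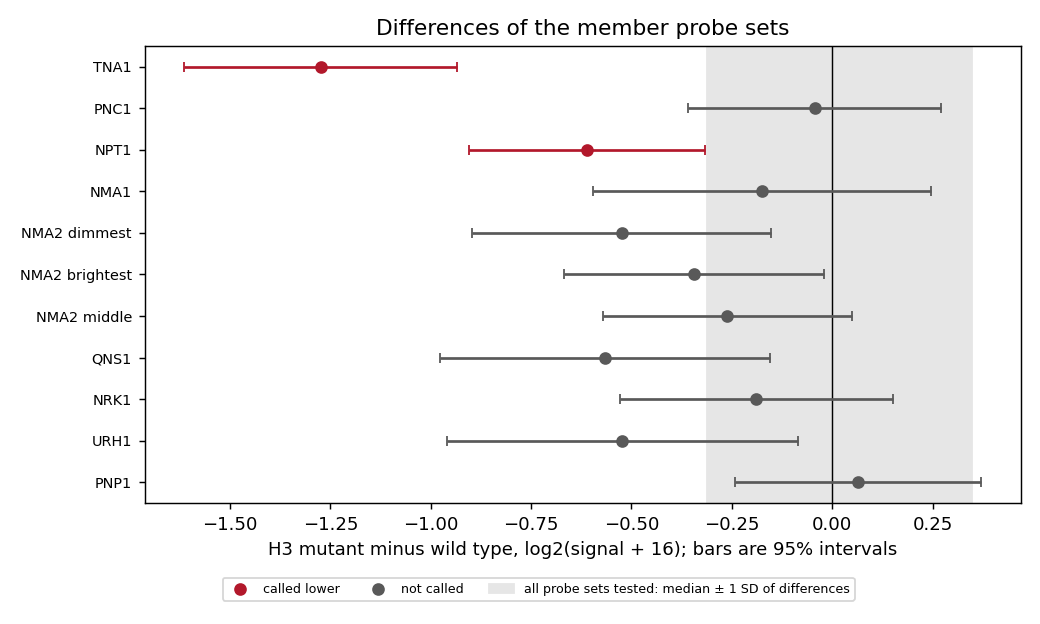
Difference between H3 mutant and wild type on log2(signal + 16) for each of the 11 probe sets, with 95% intervals from limma, against the spread of all 6808 probe sets tested (grey, median ± 1 SD). TNA1 (-1.27) and NPT1 (-0.61) were called lower, and the interval of TNA1 lies well clear of the grey band while that of NPT1 ends at its edge.

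The nicotinamide riboside genes were NRK1, URH1 and PNP1, and none was called. NRK1 (YNL129W) encodes the kinase that phosphorylates nicotinamide riboside. Its signal was 155, 152 and 158 on the mutant arrays, against 165, 215 and 161 on the wild-type arrays. The mutant arrays were close together and all below the wild type, by a narrow margin (158 against 161 at the nearest), and the difference was -0.19 (SE 0.15, 95% interval -0.53 to 0.15).

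URH1 (YDR400W) encodes a nucleoside hydrolase and PNP1 (YLR209C) a purine nucleoside phosphorylase, both of which split nicotinamide riboside to release nicotinamide. URH1 gave 325, 191 and 223 on the mutant arrays and 370.1, 386 and 306 on the wild-type arrays. Mutant replicate 1 lay within the wild-type range and the other mutant arrays below it. The difference was -0.52 (SE 0.20, 95% interval -0.96 to -0.085). PNP1 gave 467, 571 and 467 on the mutant arrays and 499.8, 463 and 468 on the wild-type arrays. Its groups overlapped, with a difference of 0.06 (SE 0.14, 95% interval -0.24 to 0.37), and its sign turned with the intensities as deposited (-0.18) and without mutant replicate 2 (-0.03).

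Among replicates, the mutant arrays varied more than the wild-type arrays for 8 of the 11 probe sets. The coefficient of variation for TNA1 was 18.2% in the mutant and 5.72% in the wild type, and for PNC1 it was 18.4% in the mutant and 2.90% in the wild type. NRK1 went the other way, at 2.17% in the mutant and 16.6% in the wild type. Over all probe sets tested the median was 14.9% in the mutant and 9.90% in the wild type.

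**Figure D3:**
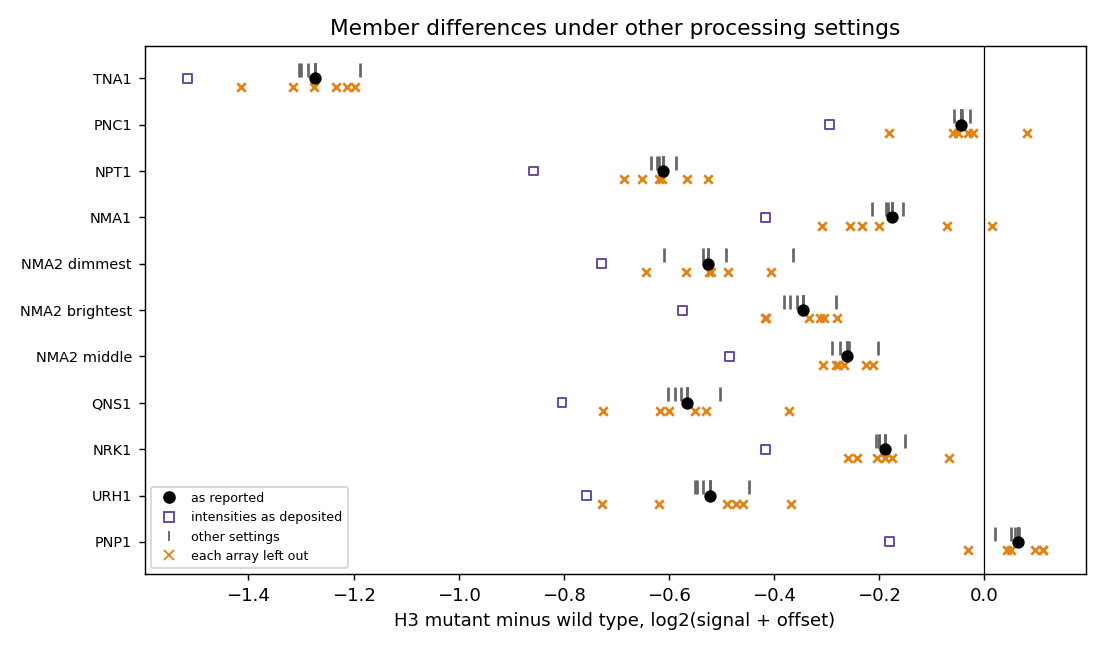
Difference between H3 mutant and wild type for each probe set as reported (black), with the intensities as deposited (squares), under the other settings (bars) and with each array left out (crosses). All values for TNA1 lie between -1.52 and -1.19, and the deposited scale moves each probe set further down, PNP1 to -0.18.

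The 7 BNA genes, listed for the tryptophan route, were set beside TNA1. This list and those below were chosen with earlier results of these data known. Their counts and p-values are therefore a description and support nothing. Of these 7 genes, 3 were called lower and 0 higher, with a median difference of -0.65. At an unadjusted limma p under 0.05, 4 were lower and 0 higher. BNA6, the phosphoribosyltransferase that makes nicotinic acid mononucleotide from quinolinic acid, gave 298, 445.1 and 321 on the mutant arrays and 1147, 1167 and 1126 on the wild-type arrays (difference -1.67, SE 0.16, limma adjusted p = 0.0019). BNA1, a dioxygenase earlier in the route, gave 406, 402 and 426 on the mutant arrays and 1271, 974 and 1215 on the wild-type arrays (difference -1.44, SE 0.14, limma adjusted p = 0.0019). As for TNA1, the highest mutant array of each lay far below the lowest wild-type array.

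BNA5, kynureninase, fell by 0.86 (SE 0.15, limma adjusted p = 0.022), and lost its call without any 1 array other than mutant replicate 2 (adjusted p = 0.061 to 0.097). The remaining 4 genes were not called, and they differed by -0.65 for BNA7 (SE 0.20, limma adjusted p = 0.12), -0.29 for BNA4, -0.04 for BNA3 and -0.03 for BNA2. BNA6, at 30.9% of its wild-type mean, thus stood in the same route as BNA2 and BNA4, whose groups overlapped. The groups overlapped for BNA3 as well. They did not for BNA7, which gave 185, 120 and 223 on the mutant arrays and 288, 264 and 283 on the wild-type arrays.

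**Figure D4:**
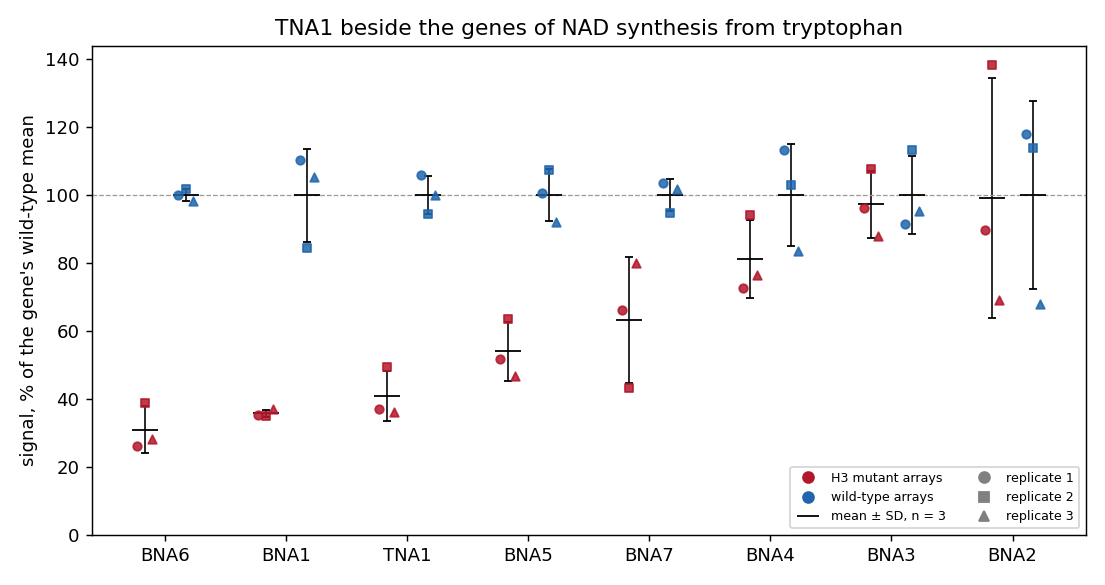
Signal of TNA1 and of the 7 BNA genes on each array, as a percentage of the gene's own wild-type mean, H3 mutant left of wild type, with mean ± SD (n = 3). BNA6, BNA1 and TNA1 (40.8%) lie lowest in the mutant, and the groups overlap for BNA4, BNA3 and BNA2.

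Across all genes, the probe sets whose pattern over the 6 arrays was most like that of TNA1 were ranked by Pearson correlation on the log2 scale. BNA6 was the nearest of 5631 probe sets of other genes (r = 0.995). The next were ADE8 (r = 0.995), ARR1 (r = 0.994), GON7 (r = 0.991), COA1 (r = 0.990) and YFR018C (r = 0.987). Of the other BNA genes, BNA5 ranked 11th and BNA1 35th, while BNA4 ranked 620th (r = 0.754), BNA7 870th (r = 0.668), BNA3 2012th (r = 0.226) and BNA2 2087th (r = 0.193). All 6 nearest probe sets had lower and non-overlapping values in the mutant, so r follows mainly the difference between the groups. Mutant replicate 2 was the highest mutant array for each of them as it was for TNA1. ADE8, of purine synthesis, gave 702, 852 and 672 on the mutant arrays and 1834, 1476 and 1739.7 on the wild-type arrays.

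Other NAD genes were described by role. In a list of 7 genes for transport of nicotinamide riboside and for nucleotidases and related enzymes, 1 was called lower and 1 higher. FUN26, a vacuolar nucleoside transporter that also carries nicotinamide riboside, gave 381, 334 and 278 on the mutant arrays, against 578, 499 and 572 on the wild-type arrays. It fell by 0.71 (SE 0.15, limma adjusted p = 0.046), with no overlap. The FUN26 call was lost with no signal filter (adjusted p = 0.068) and without mutant replicate 1 (0.074) or 3 (0.10), or wild-type replicate 1 (0.18), 2 (0.092) or 3 (0.18).

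PHO5, a secreted acid phosphatase listed because phosphatases turn nicotinamide mononucleotide into the riboside, gave 912, 1133 and 936 on the mutant arrays and 543, 547 and 500.4 on the wild-type arrays. It rose by 0.88 (SE 0.14, limma adjusted p = 0.013), with every mutant array above every wild-type array. The PHO5 call was lost without wild-type replicate 1 (adjusted p = 0.055), 2 (0.055) or 3 (0.072), and whether its probes also read RNA of its close paralogues was not tested. The nucleotidase genes SDT1 and ISN1 differed by -0.19 and 0.03 and PHO8, the vacuolar phosphatase, by 0.22, with no call. NRT1, the plasma membrane nicotinamide riboside transporter, was dim at 58.5, 58.2 and 61.8 on the mutant arrays and 69.5, 119 and 66.2 on the wild-type arrays, and was not called.

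Among 6 genes for NAD kinases, mitochondrial NAD carriers and an NADH pyrophosphatase, 0 were called by limma, while 1 was lower and 1 higher at an unadjusted p under 0.05. POS5, the mitochondrial NADH kinase, gave 390.4, 390.1 and 492 on the mutant arrays and 267, 326 and 251 on the wild-type arrays (difference 0.57, SE 0.16, limma adjusted p = 0.098). YEA6, a mitochondrial NAD carrier, gave 286, 182 and 239 on the mutant arrays and 371, 308 and 351 on the wild-type arrays (difference -0.53, SE 0.18, limma adjusted p = 0.15). The groups did not overlap for either gene. NPY1, the pyrophosphatase, differed by -0.11 and UTR1, a cytosolic NAD kinase, by 0.26.

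The NAD-dependent deacetylases and the Sum1 complex formed a list of 7 genes with 0 calls by limma, 1 lower and 2 higher at an unadjusted p under 0.05, and a median difference of 0.07. HST1 gave 914, 1045 and 1100.5 on the mutant arrays and 755, 868 and 836 on the wild-type arrays (difference 0.31, SE 0.13, limma adjusted p = 0.23). SUM1 gave 349.7, 340.4 and 424 on the mutant arrays and 455, 474 and 469.7 on the wild-type arrays (difference -0.32, SE 0.14, limma adjusted p = 0.23). SIR2, the deacetylase of silent chromatin, differed by 0.34 (SE 0.13, limma adjusted p = 0.21), HST2 by 0.08 and RFM1, which joins Hst1 to Sum1, by 0.03. The groups did not overlap for HST1 and SIR2, with the mutant higher, and for SUM1, with the mutant lower. Of all 6808 probe sets tested, 972 did not overlap with the mutant higher and 783 with the mutant lower. Of 7 middle sporulation genes that Sum1 is known to repress, only SPS1 passed the signal filter, at a difference of 0.25 with no call.

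**Figure D5:**
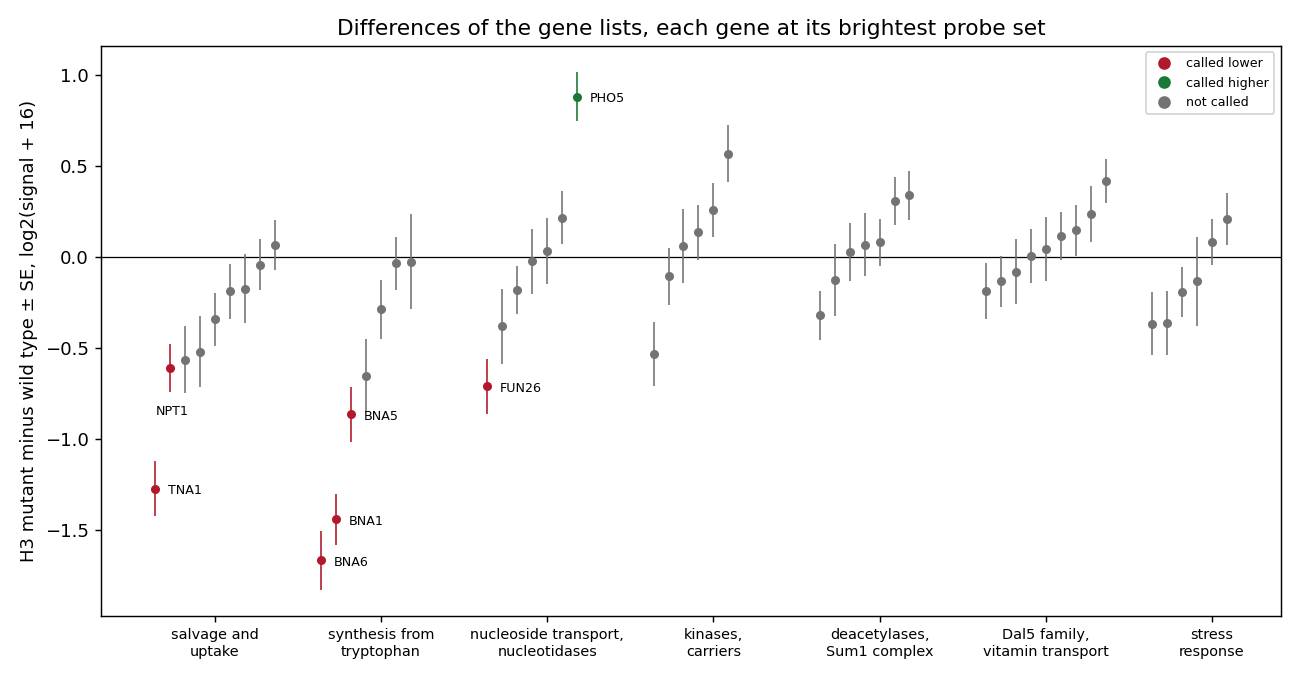
Difference between H3 mutant and wild type (± SE) on log2(signal + 16) for each tested gene of 7 lists, at its brightest probe set. Called genes are named: TNA1, NPT1, BNA6, BNA1, BNA5 and FUN26 lower and PHO5 higher, with no call in the 4 lists on the right.

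Tna1 belongs to the Dal5 family of anion transporters, which includes carriers of other vitamins. Of 9 genes of that family or for other vitamin transporters, 0 were called by limma, with 1 higher and 0 lower at an unadjusted p under 0.05, and a median difference of 0.04. VHT1, the biotin transporter, gave 737, 827 and 801 on the mutant arrays and 596, 592 and 572 on the wild-type arrays (difference 0.42, SE 0.12, limma adjusted p = 0.11). The remaining 8 ranged from -0.19 for YCT1 to 0.23 for SEO1. TPN1, the pyridoxine transporter, differed by 0.04 and THI7, the thiamine transporter, by 0.12.

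Stress genes were set beside PNC1, whose promoter is a known target of the stress activators Msn2 and Msn4. Of 6 genes, 0 were called by limma (0 also at an unadjusted p under 0.05), and the median difference was -0.16. HSP12, a membrane stress protein, gave 8152, 9889.5 and 7089 on the mutant arrays and 9722, 8491 and 10322 on the wild-type arrays. Among the mutant arrays, replicate 2 was the highest for HSP12 and TPS1, as it was for PNC1, and the lowest for SSA4, MSN2, MSN4 and CTT1. TPS1, of trehalose synthesis, differed by 0.08, the heat shock gene SSA4 by 0.21 and MSN2 by -0.14. CTT1, cytosolic catalase, differed by -0.37 and MSN4 by -0.36, both with non-overlapping groups and no call.

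Genes next to the 9 were compared as well. Of 18 immediate neighbours in the R64 gene table, 14 were tested, 0 were called by limma and the median difference was 0.05. An unadjusted limma p under 0.05 was found for 2 of the 14, and for 1334 of all 6808 probe sets tested. RAD2 and APL6, on either side of TNA1, differed by 0.37 (SE 0.15, limma adjusted p = 0.22) and -0.15 (SE 0.15, limma adjusted p = 0.61). PTP2 and RPB10, beside NPT1, differed by 0.63 (SE 0.16, limma adjusted p = 0.079) and 0.06 (SE 0.13, limma adjusted p = 0.83). PTP2 had 5 probe sets, of which only the brightest was taken. OCH1 and VIR1, beside PNC1, differed by 0.37 and 0.23, and SEC9 and MCY1, beside NMA2, by -0.10 and 0.10. OSH3 and PPE1, beside QNS1, differed by 0.02 and -0.33, TEP1, beside NRK1, by -0.27, HPT1, beside URH1, by -0.78, and SEC13 and CLB4, beside PNP1, by 0.03 and 0.30. The sign of the HPT1 difference turned without mutant replicate 2 (0.12). The groups did not overlap for 3 neighbours with the mutant higher (RAD2, PTP2 and CLB4) and for 2 with the mutant lower (PPE1 and TEP1). By gene order, TNA1 had 31 protein-coding genes between it and the nearer end of chromosome VII, and the other 8 genes of the set had at least 130. Of the genes called lower in the tryptophan route, BNA6 had 9 such genes between it and the nearer end of its chromosome, BNA1 134 and BNA5 225. Of the BNA genes not called, BNA4 had 15, BNA2 84, BNA7 106 and BNA3 153.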

How the data were processed

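The deposited intensities were MAS5 probe set signals on a linear scale, per the submitters' processing notes. No version of MAS5 was stated there. Written steps in the file show that the mutant arrays hold multipliers of 0.888, 0.869 and 0.767 (replicates 1 to 3), and no source used here says why.

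From 9335 probe sets, 60 controls were left out. Scaling then gave all arrays a 2% trimmed mean of 500, so the multipliers drop out. The 6808 probe sets with a mean of at least 50 were tested with limma 3.58.1 (R 4.3.3; intensity trend) on log2(signal + 16), with Benjamini-Hochberg adjustment. The offset understates the change of dim probe sets. Precision is limited by the number of arrays, with a median SE of 0.16. The procedure was tested on simulated data.

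Probe sets were named through GEO's platform annotation and RefSeq's R64 gene table. Of 6504 probe sets with 1 gene, all matched the table, while 328 had several genes and 2503 none. The files name no genome build, so no coordinates are given.

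The genes and lists were chosen with earlier results of these data known. Named were all member probe sets, called genes of each list plus up to 4 others with the brightest signal, tested immediate neighbours, and the 6 genes most like TNA1. NRT1, RFM1, SEO1, CTT1 and MSN4 fall outside this rule and were chosen after their values were seen. Titles gave groups and replicate numbers, and the design speaks of replicate cultures. Same-numbered arrays' deviations from their group means correlated at 0.13, 0.16 and 0.04, and those of different-numbered arrays at -0.13 to 0.05. The main fit did not take the numbers as pairs, and whether same-numbered arrays share an effect was not tested.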

Additional observations from a re-analysis of the deposited data

How the results depend on the processing

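TNA1, BNA6 and BNA1 were called lower under all 9 other settings and without any 1 array. The number of the 9 salvage and uptake genes called lower, 2 as reported, was 1 with no signal filter, with a filter at 200 and without an intensity trend, and 1 to 3 when an array was left out. It was 2 with the replicate number as a block, with quantile or median scaling and with offsets of 1 and 64, and 3 with the intensities as deposited. The signs of uncalled differences turned for PNP1 with the intensities as deposited (-0.18) and for 3 genes with an array left out. With each array left out in turn, PNC1 ranged from -0.181 to 0.0806 and NMA1 from -0.308 to 0.0143, both highest without mutant replicate 3, and PNP1 from -0.0299 without mutant replicate 2 to 0.111. The cause was not tested. Of the 20 other NAD genes, 4 were called lower as reported and 2 to 4 with an array left out, and 1 was called higher as reported and 0 to 1 with an array left out. Over all probe sets, 92 lower and 61 higher became 372 and 31 with the intensities as deposited, where the further factor lowers every mutant value, 54 and 33 with no filter, 57 and 41 with a filter at 200, and 147 and 108 with the replicate block. With an array left out they were 23 to 140 lower and 13 to 124 higher, most without mutant replicate 2. The replicate block changed no call among the salvage genes or the other NAD genes. Deviations of mutant replicates 1 and 2 correlated best with those of the wild-type array of their own number. Those of mutant replicate 3 correlated slightly better with wild-type replicate 1 (0.05) than with its own number (0.04). Signal over background could not be judged, since no detection calls were used, and the SE of the 11 probe sets was 0.13 to 0.20.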

Other observations

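HPT1, the hypoxanthine-guanine phosphoribosyltransferase gene beside URH1, gave 1479.8, 213 and 1526 on mutant arrays 1, 2 and 3, and 1455, 1151 and 1561 on the wild-type arrays. Mutant replicate 2 stood far below the other 5 arrays, and the difference was -0.78 (SE 0.60, limma adjusted p = 0.50). Without that array it was 0.12 (SE 0.15, limma adjusted p = 0.64). URH1 was also lowest on mutant replicate 2 (191, against 325 and 223 on the other mutant arrays), by a smaller margin.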
